A study of Mus musculus with 69 samples.

Results

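Bulk RNA sequencing followed p53KO–emiRFP cells of mosaic WT + p53KO gastruloids from 96 h to 120 h after aggregation. The 6 libraries were chosen by their labels out of 69: 3 replicates of these sorted cells at 120 h and 3 at 96 h, compared over all genes. Gastruloids are aggregates of mouse embryonic stem (mES) cells that elongate in culture and form tissues of the embryonic trunk. All libraries derive from the mES cell line E14tg2A, and all gastruloids were exposed from 48 to 72 h to CHIR99021, which activates Wnt signalling.

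The p53KO–emiRFP cells are 1 clone. It was derived from the clone WT–emiRFP by disrupting Trp53 with Cas9 and selecting with Nutlin-3a, and it carries a fluorescent histone under the CAG promoter. In WT + p53KO gastruloids these cells grew beside WT–mCherry cells, a separate clone with intact Trp53 and a fluorescent histone under the EF1α promoter. A pair of WT populations, sampled at the same hours with 3 libraries each, served as controls. WT–emiRFP cells came from WT + WT gastruloids, so that genotype and neighbours differ together from the p53KO–emiRFP cells. WT–mCherry cells came from the same WT + p53KO gastruloids, so that genotype and clone differ together. Within each comparison these factors cannot be told apart. The series also holds WT–mCherry cells of WT + WT gastruloids, from which no difference of changes was tested here. The replicates are separate experiments according to the study's methods, each library pools many gastruloids, and the purity of the cells after sorting was not measured.

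In the embryonic trunk, cells leave a caudal progenitor region that expresses T, Wnt3a and Fgf8 and enter the presomitic mesoderm, where the transcription factors Tbx6 and Msgn1 are active. There a clock of Notch and Wnt target genes oscillates, Mesp2 and Ripply2 set the boundary of the next segment, and the segments become somites that express Meox1, Pax3 and Uncx. Hox genes are switched on in the order of their position in the cluster and give the new tissue its axial identity. Trp53 encodes p53, a transcription factor that is stabilised by stress and turns on genes of cell cycle arrest and cell death.

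The 6 libraries held between 48035718 and 66543495 counts, and the libraries of the WT populations at the same hours between 48731535 and 64019780. Mitochondrial genes took 1.12% to 1.57% of the counts at 96 h and 0.795% to 1.15% at 120 h. These ranges overlap, but the share was lower at 120 h in all 3 same-numbered pairs, and its part in the results was not tested. Over the 14106 genes averaging 50 counts or more, libraries of one hour correlated at 0.995 to 0.996 and libraries of different hours at 0.963 to 0.976 on the log scale, which describes these libraries across genes. Normalized counts are counts divided by a size factor of the library, so they compare one gene between libraries and not one gene with another. Changes are log2 fold changes of 120 h over 96 h with their standard error (SE), and p values come from edgeR's quasi-likelihood test, adjusted over all 21121 genes tested.

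Trp53 lies on chromosome 11 at positions 69580359 to 69591873 on the plus strand in GRCm38. It had 1726, 1728 and 1712 normalized counts in the 96 h libraries and 1954, 2014 and 1706 in the 120 h libraries. These groups overlap, and the change of 0.14 (SE 0.07) did not pass the test (adjusted p = 0.16). Without replicate 3 of 120 h it did. Relative to the WT–emiRFP library with the same number, Trp53 stood at 10.3% to 11% at 96 h and at 9.55% to 11.6% at 120 h. Eda2r, a TNF receptor family gene that p53 turns on, stood at 1.04% to 1.68% of its WT–emiRFP counts at 96 h and at 2.05% to 2.54% at 120 h. The targeted gene was thus low at both hours.

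Of the genes tested, 7382 (35.0%) changed between 96 h and 120 h: 3990 (18.9%) rose and 3392 (16.1%) fell. A change of at least 2-fold was found for 1132 genes that rose and 788 that fell, and one of at least 8-fold for 162 and 62. The median change of all genes was 0.02. Counts of list members below are to be read against the 18.9% and 16.1% of all genes. The 96 h and 120 h groups did not overlap for 10280 genes (48.7%), so a lack of overlap alone does not set a gene apart. In bulk samples fewer cells of a type and less RNA per cell cannot be told apart. The 15 largest rises and 15 largest falls described next are those among genes that passed with a mean log2 CPM of 1 or more, groups that do not overlap, the same sign in 3 same-numbered pairs and no predicted symbol.

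The segmentation genes Ripply2 and Mesp2, the dermomyotome gene Dmrt2 and the Nodal antagonist Cer1 rose together, and the ubiquitin ligase gene Trim67 had the largest of these falls, so the 250 bases before their RefSeq starts (GRCm38.p6, read 5′ to 3′ on the strand of the gene) are shown with capitals for the T-box core GGTGTG in either orientation. These letters were chosen because Tbx6 and T bind such sites. The windows are chr9:87015287-87015536 for Ripply2, chr7:79810477-79810726 for Mesp2, chr19:25672161-25672410 for Dmrt2 and chr8:124792769-124793018 for Trim67, all on the plus strand, and chr4:82885152-82885401 on the minus strand for Cer1.
Ripply2: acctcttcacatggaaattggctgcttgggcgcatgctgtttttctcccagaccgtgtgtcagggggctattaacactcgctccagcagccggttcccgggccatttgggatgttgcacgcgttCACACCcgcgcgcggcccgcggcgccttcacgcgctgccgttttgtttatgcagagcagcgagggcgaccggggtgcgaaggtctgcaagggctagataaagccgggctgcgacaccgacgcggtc
Mesp2: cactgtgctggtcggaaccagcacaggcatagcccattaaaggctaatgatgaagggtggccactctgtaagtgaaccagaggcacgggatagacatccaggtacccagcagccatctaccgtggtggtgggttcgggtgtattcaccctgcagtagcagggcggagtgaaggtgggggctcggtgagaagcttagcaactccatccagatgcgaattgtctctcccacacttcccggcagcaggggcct
Dmrt2: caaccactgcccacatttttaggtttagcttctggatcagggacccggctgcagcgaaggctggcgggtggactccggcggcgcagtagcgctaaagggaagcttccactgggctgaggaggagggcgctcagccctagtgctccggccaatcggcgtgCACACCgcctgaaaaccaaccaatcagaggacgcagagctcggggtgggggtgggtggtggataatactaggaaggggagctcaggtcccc
Cer1: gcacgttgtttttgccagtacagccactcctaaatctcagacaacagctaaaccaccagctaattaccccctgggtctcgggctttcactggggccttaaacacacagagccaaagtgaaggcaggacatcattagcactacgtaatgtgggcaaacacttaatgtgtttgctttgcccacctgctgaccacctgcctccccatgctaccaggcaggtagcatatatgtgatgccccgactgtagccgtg
Trim67: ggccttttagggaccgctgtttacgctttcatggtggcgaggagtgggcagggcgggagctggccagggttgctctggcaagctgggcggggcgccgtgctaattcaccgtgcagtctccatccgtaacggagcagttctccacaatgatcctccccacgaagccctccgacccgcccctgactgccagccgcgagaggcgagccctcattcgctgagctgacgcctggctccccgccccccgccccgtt
Ripply2 and Dmrt2 hold 1 match each, and the other 3 windows hold none. The core was in 16.28% of the 32851 promoters of this length. It was in 4 of 12 promoters of the 15 largest rises, of which 11 genes had a RefSeq promoter, and in 3 of 14 of the 15 largest falls, of which 12 genes had one. The TCF/LEF core CTTTGA, searched in both orientations, was in 13.83% of all promoters, in 2 of those 12 and in 1 of those 14. None of the 5 windows shown holds it. A match describes the letters and is not a binding site.

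Genes of somites were among the 15 largest rises. Uncx, a homeobox gene of the posterior part of each somite, had 4.61, 2.13 and 3.45 normalized counts in the 96 h libraries and 660.1, 834 and 1216 in the 120 h libraries. Every 120 h library was far above every 96 h library, and the change was 7.95 (SE 0.44, adjusted p = 8.2e-22). Meox1, a homeobox gene of all early somites, had 287, 333 and 229 normalized counts in the 96 h libraries and 8750.2, 9564 and 12103 in the 120 h libraries, a rise of 36-fold. Foxc2, a forkhead gene of presomitic and somitic mesoderm, had 151, 134 and 266 normalized counts in the 96 h libraries and 3349, 4641 and 5175 in the 120 h libraries, a rise of 23.8-fold. Both were high in all 3 libraries of 120 h.

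Genes of the boundary between presomitic mesoderm and somite rose with them. Mesp2, a bHLH factor that positions the segment border, had 23.1, 45.8 and 27.6 normalized counts in the 96 h libraries and 829.8, 1129.8 and 1071 in the 120 h libraries. Ripply2, a corepressor that ends Tbx6 activity at this border, had 7.69, 9.58 and 6.04 normalized counts in the 96 h libraries and 300.4, 336 and 411 in the 120 h libraries. Their changes were 5.01 and 5.49, and no 96 h library reached the range of the 120 h libraries. Dmrt2, needed for the dermomyotome and for symmetric somites, had 24.6, 21.3 and 35.4 normalized counts in the 96 h libraries and 1327, 1411 and 1708 in the 120 h libraries, a change of 5.76. Cer1, a secreted antagonist of Nodal, BMP and Wnt that is also made in the anterior presomitic mesoderm, had 11.5, 10.6 and 4.31 normalized counts in the 96 h libraries and 479, 682 and 744 in the 120 h libraries, a change of 6.15. For each of them the groups stood well apart.

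Bmp3, a BMP family ligand that opposes BMP signalling, was the only gene that passed from at most 3 counts in each library of 96 h to at least 100 normalized counts in each of 120 h, and 0 genes did the reverse. Its raw counts were 2, 1 and 1 at 96 h and 240, 301 and 387 at 120 h. The ratio was 256 with an exact 95% interval of 99.7 to 942 for counting error only. With a limit of 10 counts at 96 h, 5 genes were switched on.

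The other 7 of the 15 rises were more mixed in function. Nr2f2 and Nr2f1, orphan nuclear receptors of mesenchyme, changed by 5.72 and 4.80. Nr2f2 had 13.1, 31.9 and 20.7 normalized counts in the 96 h libraries and 873, 1049 and 1417 in the 120 h libraries, with no overlap. Sim1, a bHLH-PAS gene of lateral somite and intermediate mesoderm, had 23.1, 13.8 and 25 normalized counts in the 96 h libraries and 543, 636 and 867 in the 120 h libraries, a change of 5.01. Islr, a gene of mesenchymal cells, changed by 5.38, the leucine-rich repeat gene Lrrn3 by 4.76, Stum by 4.70 and Pgm5, a cytoskeletal relative of phosphoglucomutase, by 4.48. In all of these the 3 libraries of 120 h were above those of 96 h, a condition of the choice. Nr2f2, Nr2f1, Islr, Meox1, Lrrn3, Stum, Foxc2 and Pgm5 overlap other annotated genes, and whether counting used the strand of the reads is not given in the sources used here.

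Of the 15 falls, Trim67 was the largest. It had 2529, 4089 and 2520.0 normalized counts in the 96 h libraries and 59.3, 94.2 and 52.2 in the 120 h libraries, a change of −5.46 (SE 0.25, adjusted p = 5.5e-25), or 43.9-fold lower. Mixl1, a homeobox gene of the primitive streak and nascent mesendoderm, had 2458, 3347 and 3263 normalized counts in the 96 h libraries and 307, 385 and 327 in the 120 h libraries, or 8.88-fold lower. Fst, which encodes the activin and BMP antagonist follistatin, had 10081, 12608 and 8544 normalized counts in the 96 h libraries and 1057, 1434 and 1306 in the 120 h libraries, or 8.22-fold lower. The fall of these genes was seen in every library of 120 h, and means of 339.6 for Mixl1 and 1265 for Fst remained.

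Other falls were of enzyme genes, receptor genes and members of gene families. Alox15, an arachidonate lipoxygenase, had 7517, 8721 and 6836 normalized counts in the 96 h libraries and 682, 1190.5 and 608 in the 120 h libraries, a change of −3.21. Ptgs1, the constitutive cyclooxygenase, had 1164, 1679 and 1225 normalized counts in the 96 h libraries and 107, 142 and 131 in the 120 h libraries, a change of −3.41. Cyp11a1, which starts steroid synthesis by cleaving the side chain of cholesterol, had 249, 282 and 246 normalized counts in the 96 h libraries and 17.4, 25.4 and 8.03 in the 120 h libraries, a change of −3.91. All 3 were low in each library of 120 h, with replicate 2 the highest. The retinoid receptor gene Rxrg changed by −3.21, the sodium channel gene Scn9a by −3.18, the inflammasome gene Nlrc4 by −3.67, the carboxypeptidase-like gene Cpxm2 by −3.76 and the lymphocyte receptor gene Btla by −3.13. Sprr2a3 (−5.06), Olfr539 (−3.59), Gbp2 (−3.31) and Gbp2b (−3.29) belong to families of similar genes. The study's methods count uniquely mapped reads, so reads that such copies share are missing from these values. On the same strand, Cpxm2 overlaps Fgfr2, and Trim67, Cyp11a1, Nlrc4 and Scn9a overlap predicted genes. Olfr539, Ptgs1, Gbp2 and Fst overlap genes on the other strand, so the counts of all 9 are uncertain to that extent.

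**Figure D1:**
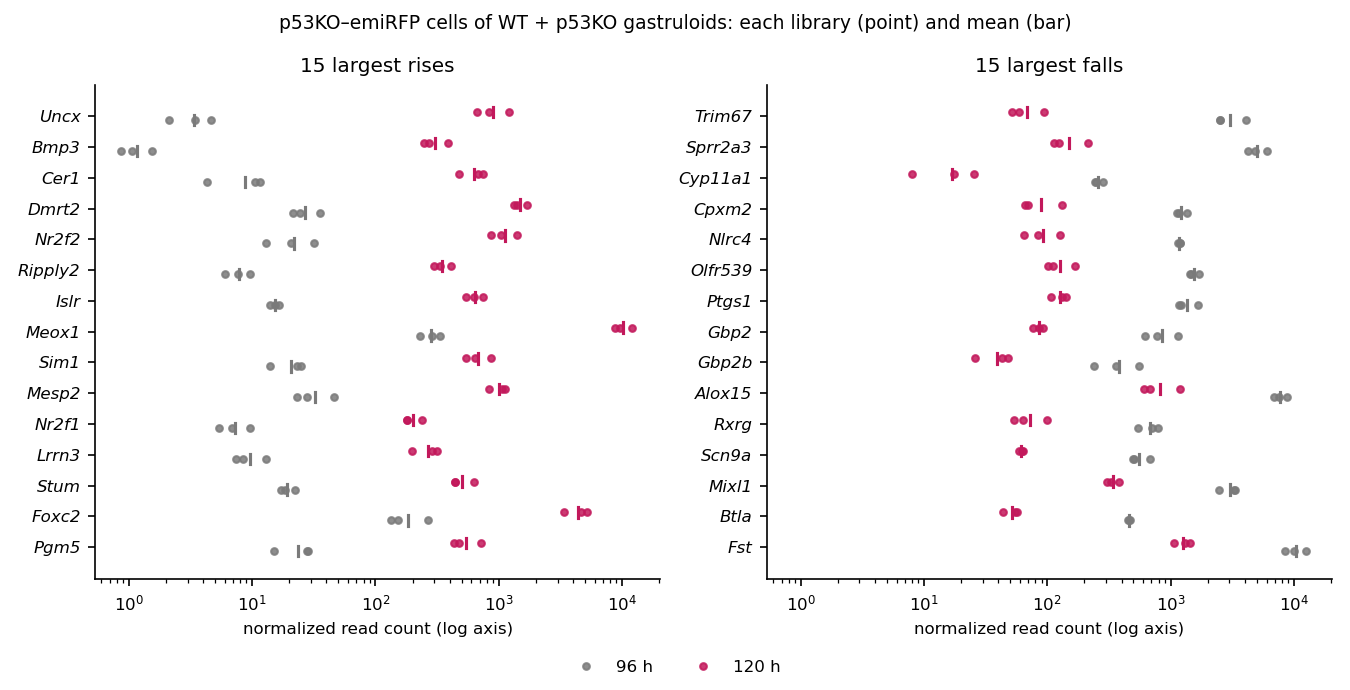
Normalized read counts (log axis) of the 15 largest rises and the 15 largest falls in p53KO–emiRFP cells, with each library of 96 h in grey and of 120 h in red and the mean as a bar. The groups do not overlap for any of these genes, as the choice required; Uncx rose from a mean of 3.40 to 903 and Trim67 fell from 3046 to 68.6.

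Over the whole course from 48 to 144 h, 6 of the 15 rises had their highest mean in p53KO–emiRFP cells at 120 h and 9 at 144 h. Of the 15 falls, 9 had it at 96 h, 5 at 72 h and 1 at 48 h. In both WT populations all 15 rises also rose and all 15 falls also fell. Over all genes tested, 21.3% rose and 21.0% fell in WT–emiRFP cells, and 16.6% rose and 16.6% fell in WT–mCherry cells. The change of p53KO–emiRFP cells was higher than that of WT–emiRFP cells for 16.9% of all genes and lower for 13.9%, and against WT–mCherry cells these shares were 5.87% and 4.70%. The 30 genes were chosen for their large changes in p53KO–emiRFP cells, which favours a larger change there, so their counts are a description. For the 15 rises, it differed from WT–emiRFP cells in 7 genes and from WT–mCherry cells in 2, and was larger in p53KO–emiRFP cells each time. Among them, the change of Foxc2 was larger by 3.51 (SE 0.34, adjusted p = 3.9e-12), that of Sim1 by 3.04 and that of Mesp2 by 2.79 (adjusted p = 1.1e-12). Of the falls, 6 differed from WT–mCherry cells, with 2 larger in p53KO–emiRFP cells. From WT–emiRFP cells 7 differed, with 2, Nlrc4 (−1.57) and Fst (−1.20), larger in p53KO–emiRFP cells, and Mixl1 fell less there, by 2.20 (SE 0.28).

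Of the 18 somite genes tested, 16 rose and none fell, with a median change of 2.27. Pax3, a paired-box gene of the dermomyotome, had 117, 109.6 and 126 normalized counts in the 96 h libraries and 1707, 1967 and 2189.6 in the 120 h libraries, a change of 4.05. Tcf15, the bHLH factor that makes somites epithelial, had 487, 466 and 630.4 normalized counts in the 96 h libraries and 1651, 2250.5 and 2648 in the 120 h libraries, a change of 2.05. Tbx18, which marks the anterior part of the somite, had 24.6, 13.8 and 30.2 normalized counts in the 96 h libraries and 151, 243 and 256 in the 120 h libraries, a change of 3.21. In each the 120 h libraries were all higher. Meox2 rose as well (3.05 to 69.8 on average), and the sclerotome genes Pax9 and Pax1 rose from means of 11.2 to 72.9 and of 7.91 to 38.1. Nkx3-2 (0.78) was among those that did not pass. The list moved by a median of 2.13 in WT–emiRFP and of 2.41 in WT–mCherry cells. Set against WT–emiRFP cells, the change was higher for 7 members and lower for 2, one of them Tbx18 (−1.55, adjusted p = 0.0016). The summed normalized counts of the list were 4925 to 6550.0 at 96 h and 27706 to 39108 at 120 h.

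In the presomitic list, 8 of 15 genes rose, 2 fell and 5 did not pass, with a median of 1.09. Of those that fell, Cited1 (−0.51) lost its call without replicate 3 of 96 h or without any 1 replicate of 120 h. The list had a median of −2.45 in WT–emiRFP cells and one of −0.13 in WT–mCherry cells beside p53KO cells. It was −1.44 in WT–mCherry cells of WT + WT gastruloids. Beside Ripply2 and Mesp2, Pcdh8, a protocadherin of the segmental border, had 148, 166 and 117 normalized counts in the 96 h libraries and 2095, 2229.6 and 2998 in the 120 h libraries, a change of 4.09. Lfng, the fringe enzyme that modulates Notch in the clock, had 1028, 1102 and 1518 normalized counts in the 96 h libraries and 3455, 4349 and 5005 in the 120 h libraries, a change of 1.81, and the Notch feedback gene Nrarp changed by 1.69. All 3 were high throughout the 120 h libraries.

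Msgn1 and Tbx6, the defining factors of this tissue, took different courses. Msgn1 had 4004, 5080.0 and 5536 normalized counts in the 96 h libraries and 1623, 1669.7 and 1794 in the 120 h libraries, so that it fell in every library, by 1.52 on the log2 scale (SE 0.21, adjusted p = 3.0e-08). Tbx6 had 4518, 5121 and 6313 normalized counts in the 96 h libraries and 5277, 6914 and 6185 in the 120 h libraries. Its groups overlap, and the change of 0.20 did not pass (adjusted p = 0.28). WT–emiRFP cells took Tbx6 from 7795, 9141 and 9775 to 481, 393 and 378, a change of −4.42, and Msgn1 from 7711, 9212 and 8437 to 90.3, 55.2 and 52.7, a change of −7.01. These groups do not overlap, and the WT–emiRFP cells of 120 h were far below all p53KO–emiRFP libraries. The changes differed by 4.62 for Tbx6 (SE 0.21, adjusted p = 5.1e-24) and by 5.48 for Msgn1 (SE 0.35, adjusted p = 1.1e-18). Against the WT–mCherry cells of the same gastruloids the differences were 1.85 and 2.29 (adjusted p = 1.6e-09 and 1.8e-07).

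Of the other 4 presomitic genes that did not pass, Dll3, Hes7 and Rspo3 were abundant at both hours, and the antagonist gene Dkk1 had 383, 479 and 677 at 96 h against 371, 409 and 390.4 at 120 h. Dll3, a Notch ligand that acts inside the cell, had 4795, 5446 and 5882 at 96 h against 4955, 5824 and 5909 at 120 h, and the clock repressor Hes7 had 2174, 1815 and 2812 at 96 h against 2245, 2709.8 and 2438 at 120 h. Rspo3, a secreted Wnt amplifier, had 5766, 5546 and 5881 at 96 h against 4622, 4958 and 5462 at 120 h. The groups overlap for Dll3 and Hes7 and lie close for Rspo3, and the changes were 0.05, 0.12 and −0.19. The same genes changed by −2.61, −2.86 and −3.31 in WT–emiRFP cells, and all 3 differences passed the test. Dll1, the ligand that presomitic cells present to each other, rose in p53KO–emiRFP cells (12947, 12268 and 17808 normalized counts in the 96 h libraries and 27784, 29575 and 34049.9 in the 120 h libraries) and changed by −2.45 in WT–emiRFP cells. Over the list, 13 of 15 changes were higher than those of WT–emiRFP cells and 1, that of Ripply1, was lower (−1.23). Against WT–mCherry cells beside them 12 were higher and none lower.

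**Figure D2:**
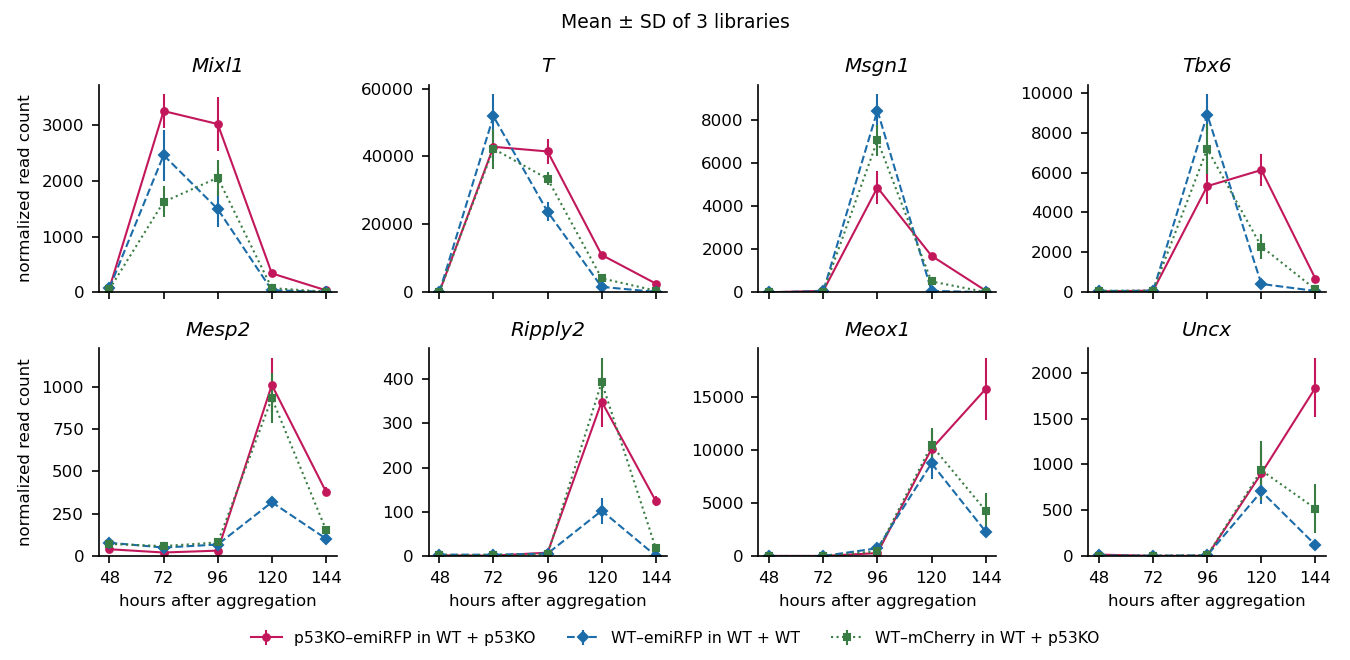
Normalized read counts (mean ± SD of 3 libraries) of 8 genes from 48 to 144 h, in p53KO–emiRFP cells (red), WT–emiRFP cells of WT + WT gastruloids (blue) and WT–mCherry cells of WT + p53KO gastruloids (green). In p53KO–emiRFP cells Tbx6 had a mean of 6125 at 120 h and 674 at 144 h, and in WT–emiRFP cells 418 and 66.7.

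The caudal epiblast list, which marks the progenitors that feed the growing axis, fell in the main: 9 of 15 genes fell, 5 rose and 1 did not pass, with a median of −0.83. T, the Brachyury gene of streak and tail bud, had 39280.0, 45780.3 and 39375 normalized counts in the 96 h libraries and 10686, 12077 and 10225 in the 120 h libraries, or 3.77-fold lower. Nkx1-2, a homeobox gene of neuromesodermal progenitors, had 28877, 29211 and 25264 normalized counts in the 96 h libraries and 7730.4, 7196 and 6482 in the 120 h libraries, a change of −1.96. Cdx1 fell by 2.05 and Cdx2 by 0.64 on the log2 scale, while Cdx4, a caudal homeobox gene, rose (3974, 2349 and 5065 normalized counts in the 96 h libraries and 8374, 6836 and 8383 in the 120 h libraries). The means went from 41478 to 10996 for T and from 21742 to 13989.5 for Cdx2.

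The caudal genes that rose were Cdx4, the BMP-like Gdf11 (1.35), the retinoic acid degrading enzyme gene Cyp26a1 (1.18), Wnt5a (0.77) and Fgf17 (0.73). Gdf11, which drives the switch from trunk to tail, had 1536, 1329 and 1972 normalized counts in the 96 h libraries and 4103, 3716 and 4546 in the 120 h libraries. The median of the list was −2.42 in WT–emiRFP cells, with 14 genes that fell and none that rose. In 12 of 15 genes the change was higher in p53KO–emiRFP cells, and in none lower. The differences for Wnt3a (2.83), Fgf8 (2.09) and Cyp26a1 (2.0) were the largest of the list. For Cdx1 and Nkx1-2 the difference did not pass (adjusted p = 0.053 and 0.22). Against WT–mCherry cells 8 changes were higher and none lower.

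Of 9 primitive streak genes 6 fell and 1 rose, with a median of −1.58. Beside Mixl1 and T these were the Wnt-induced repressor gene Sp5 (−1.58), Evx1 (−1.66), the Nodal cofactor gene Foxh1 (−1.84) and Eomes (−1.10). Eomes, a T-box gene of early mesendoderm, had 299.8, 324 and 275 normalized counts in the 96 h libraries and 133, 145 and 139 in the 120 h libraries, all lower at 120 h. By contrast it rose by 1.29 in WT–emiRFP cells. Mesp1, a bHLH gene next to Mesp2, marks the earliest mesoderm and also the anterior presomitic mesoderm. It rose in p53KO–emiRFP cells, with 42.3, 34.1 and 37.9 normalized counts in the 96 h libraries and 182, 283 and 267 in the 120 h libraries, a change of 2.67. In WT–emiRFP cells the median of the list was −2.79. For 6 of 9 genes the change was higher in p53KO–emiRFP cells, and for 2, Eomes among them, it was lower.

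Of the 39 Hox genes, 37 were tested, 21 rose and 3 fell, with a median change of 0.96, and 24 rose with the replicate number as a block. The rises were spread unevenly over the cluster. In paralogue groups 6 to 10, 14 of 15 genes rose, with a median of 1.90. In groups 1 to 5, 6 of 15 rose and 2 fell, with a median of 0.38, and in groups 11 to 13, 1 of 7 rose and 1 fell, with a median of −0.51. Hoxa9 had 633, 475 and 902 normalized counts in the 96 h libraries and 4658, 3184 and 4440.4 in the 120 h libraries, a change of 2.61. Hoxc9 had 222, 155 and 313 normalized counts in the 96 h libraries and 1589, 1149.7 and 1336 in the 120 h libraries, a change of 2.55. Hoxc10 had 3.84, 21.3 and 13.8 normalized counts in the 96 h libraries and 192, 113 and 227 in the 120 h libraries, a change of 3.84 (SE 0.43), the highest of all Hox genes tested. In these 3 genes all 120 h libraries were above all 96 h libraries.

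Hoxa6 (2.13), Hoxa7 (2.04), Hoxa10 (1.93), Hoxc6 (1.90), Hoxc8 (1.61), Hoxd8 (1.54), Hoxb7 (1.37), Hoxd9 (1.27), Hoxb9 (1.04) and Hoxb6 (0.55) rose too, and Hoxb8 (0.26) did not pass. Hoxb6 lost its call with DESeq2 and in 4 of the 6 fits that left out 1 library. Hoxd10 rose on few counts, 3, 3 and 1 at 96 h and 23, 6 and 19 at 120 h, a ratio of 7.57 with an exact 95% interval of 3.41 to 19.8. The early gene Hoxb1 (−0.57) fell. It had 9695, 11284 and 10190.2 normalized counts in the 96 h libraries and 7010.0, 7350.3 and 6674 in the 120 h libraries, but lost its call with DESeq2 and in 3 fits without 1 library. Among the terminal genes Hoxb13 rose (13.8, 14.9 and 17.2 at 96 h against 51.1, 55.3 and 43.1 at 120 h) and Hoxd13 fell (92.2, 116 and 109.5 at 96 h against 51.1, 58 and 61.2 at 120 h). Hoxc12 had no count in any of the 6 libraries, and Hoxd11 and Hoxd12, with at most 3 counts, were not tested.

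For WT–emiRFP cells the median of groups 1 to 5 was −0.71 and that of groups 6 to 10 was 0.74. The change was higher in p53KO–emiRFP cells for 25 of 37 Hox genes and lower for none, and 14 of these 25 lie in groups 1 to 5. For Hoxa9, Hoxc9 and Hoxc10 the difference did not pass (adjusted p = 0.11, 0.10 and 0.36), and Hoxc10 changed by 4.95 in WT–emiRFP cells. Against WT–mCherry cells of the same gastruloids no Hox gene had a change that passed as different, and the list's median there was 0.63. A p that misses the threshold does not show that the changes were equal.

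**Figure D3:**
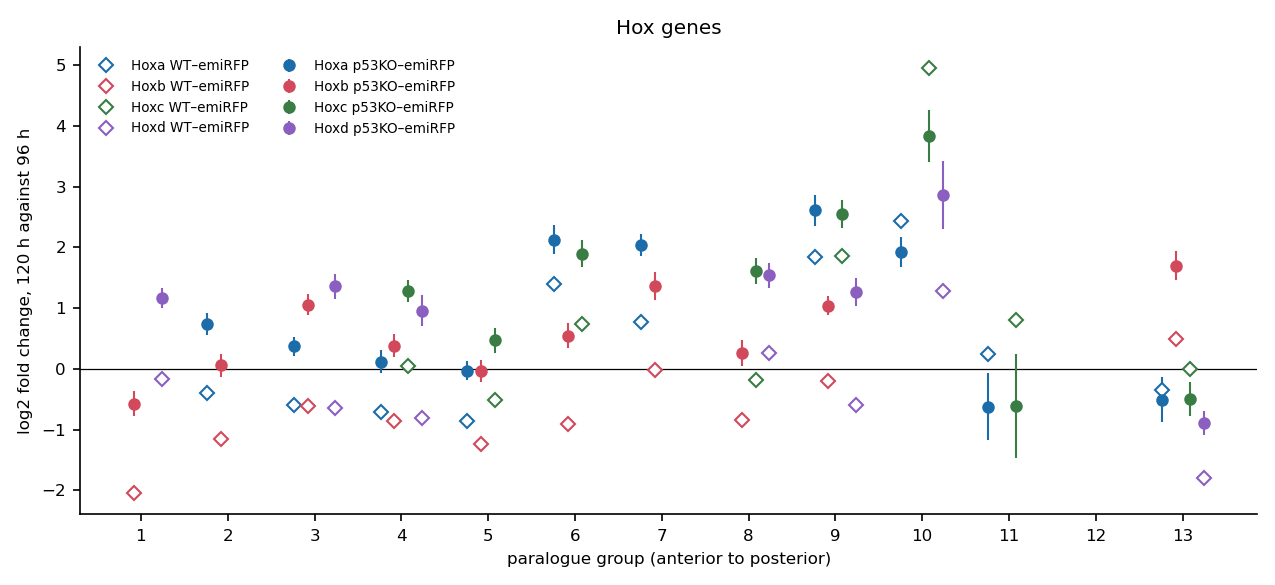
Log2 fold change from 96 h to 120 h of 35 Hox genes by paralogue group, with filled circles and SE bars for p53KO–emiRFP cells and open diamonds for WT–emiRFP cells, coloured by cluster. The circles peak in groups 9 and 10, with Hoxc10 at 3.84, and lie mostly above the diamonds in groups 1 to 5.

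In Notch signalling, ligands on one cell trigger cleavage of receptors on its neighbour and so turn on Hes and Hey repressors. Transcripts of 13 of its 19 genes rose and none fell, with a median of 0.81. Activity of the pathway was not measured. With the replicate number as a block, or without replicate 2 of 120 h, 1 gene fell. Among the targets, Heyl had 42.3, 54.3 and 55.2 normalized counts in the 96 h libraries and 465, 458 and 598 in the 120 h libraries, a change of 3.33. Hey1 had 809, 769.7 and 1004 normalized counts in the 96 h libraries and 3242, 3544 and 4029 in the 120 h libraries, a change of 2.06, and Hey2 changed by 1.82 and Hes5 by 1.76. All 4 were higher in each 120 h library. Of the receptors, Notch1 (1.10), Notch2 (0.81) and Notch3 (0.63) rose, and of the ligands Dll1 (1.09) and Jag1 (1.24). The median of the list was −0.34 in WT–emiRFP and 0.32 in WT–mCherry cells. Set against WT–emiRFP cells, the change was higher for 15 genes and for 1, the endothelial ligand gene Dll4, lower (−2.49).

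Of 19 Wnt ligands tested, 8 fell and 6 rose. Among the canonical ligands of the caudal end, Wnt8a had 12035, 13534 and 10464 normalized counts in the 96 h libraries and 1694, 2229.6 and 1188 in the 120 h libraries, or 7.04-fold lower, and Wnt3a had 8998, 9199.7 and 9420.1 normalized counts in the 96 h libraries and 3347, 4087 and 3458 in the 120 h libraries, or 2.54-fold lower. Both were lower in each 120 h library. Wnt3, which starts the streak, changed by −1.94, Wnt2 by −1.89, Wnt9b by −1.57, Wnt10a by −1.38, Wnt6 by −1.16 and Wnt5b by −1.13. Wnt5a, the noncanonical ligand of elongating tissue, had 3699, 3748 and 4353 normalized counts in the 96 h libraries and 6809.7, 5652 and 7686 in the 120 h libraries, and Wnt7b (2.94), Wnt16 (2.75), Wnt10b (1.99) and Wnt4 (0.60) rose as well. Wnt1 passed the test with no count at 96 h and a mean of 1.95 at 120 h, too low for a fold change, and lost the call without any 1 of 4 libraries. Wnt7a (0.48), Wnt8b (0.39), Wnt11 (0.04), Wnt9a (−0.13) and Wnt2b (−0.38) did not pass, although Wnt8b did with the replicate number as a block (adjusted p = 0.046). Against WT–emiRFP cells, where the median of the ligands was −1.18, 8 changes were higher and none lower.

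The targets and antagonists of Wnt signalling did not follow the caudal ligands down as a group: 9 of 17 rose and 4 fell, with a median of 0.26. Sp5 and the antagonist gene Dkk4 (204, 164 and 196 at 96 h against 14.3, 10.9 and 4.01 at 120 h) fell, and the general feedback gene Axin2 changed by −0.22. The secreted antagonist genes Sfrp5 (1.85), Sfrp1 (0.95) and Frzb (0.74) rose, as did the feedback gene Nkd2 (1.02). Of these 17 genes 14 fell in WT–emiRFP cells, with a median of −1.32, and 13 changes were higher in p53KO–emiRFP cells and none lower.

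Of 20 FGF ligands tested, 8 fell and 4 rose. Fgf8, which keeps presomitic cells immature, had 7498, 7616 and 7725 normalized counts in the 96 h libraries and 4123, 4831 and 3890.5 in the 120 h libraries, a change of −0.83. Fgf4 changed by −1.56, Fgf3 by −0.67, Fgf15 by −1.28, Fgf5 by −2.04 and Fgf1 by −2.12. Fgf20 (−2.13) and Fgf14 (−0.89) fell at means under 20 counts, and Fgf14 lost its call without any 1 of 4 libraries. Fgf18 had 90.7, 58.5 and 65.5 normalized counts in the 96 h libraries and 850.2, 929 and 1158 in the 120 h libraries, a rise of 13.5-fold, and Fgf9 (2.69), Fgf17 and Fgf12 (0.83) also rose. Fgf8 and Fgf4 were lower and Fgf18 and Fgf9 higher in each library of 120 h. Genes that ERK, the kinase downstream of FGF receptors, induces or that feed back on it fell in 8 of 13 cases and rose in 2 (1 without replicate 1 of 96 h or replicate 2 or 3 of 120 h), with a median of −0.47. Spry4, a feedback inhibitor, had 6297, 6548 and 7241 normalized counts in the 96 h libraries and 2287, 3348 and 2452 in the 120 h libraries, a change of −1.31. Dusp4 (−0.68), Etv1 (−0.62), Etv5 (−0.52) and Spred1 (−0.52) fell by less, and Spry1 (0.89) rose. The median was −0.85 in WT–emiRFP cells, and 7 changes were higher in p53KO–emiRFP cells and 1 lower.

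Retinoic acid is made in somites and opposes FGF at the front of the presomitic mesoderm. Of its 18 genes tested, 8 rose and 2 fell, with a median of 0.12. Aldh1a2, the enzyme that makes it, had 2304, 2825 and 3235 normalized counts in the 96 h libraries and 5762, 8748 and 7509 in the 120 h libraries, a change of 1.40. The WT–emiRFP cells changed Aldh1a2 by −2.57, from 9762 ± 603 to 1642 ± 370.3 (SD, n = 3 each), and the difference of 3.97 passed (adjusted p = 8.0e-21). The receptor gene Rarb, itself a target, rose by 1.71, the carrier gene Stra6 by 1.24, the binding protein gene Crabp1 by 1.28, and the 3 degrading enzymes Cyp26a1, Cyp26c1 and Cyp26b1 by 1.18, 1.19 and 0.95. The other synthesis enzyme genes of the list did not pass. Crabp1 changed by −2.04 in WT–emiRFP cells.

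Genes of Nodal signalling, which induces mesendoderm, fell in 7 of 8 cases tested, with a median of −0.69. The 1 that rose was the antagonist gene Cer1. Nodal itself had 1149.9, 1441 and 1136 normalized counts in the 96 h libraries and 636, 844 and 721 in the 120 h libraries, and its feedback inhibitor Lefty1 had 5567, 7285 and 5318 normalized counts in the 96 h libraries and 2329, 2284 and 2273 in the 120 h libraries. Both were lower in every library of 120 h, with changes of −0.76 and −1.40. The coreceptor genes Tdgf1 (−0.54) and Cfc1 (−1.76) fell too. In the BMP list, 8 of 17 rose and 2 fell, with a median of 0.31. The target Id2 changed by 2.48, the ligand Bmp2 by 2.11 and the antagonist Grem1 by 3.08, while Bmp4 (−1.09) and Fst fell. Id1 (0.12) and Id3 (0.31) did not pass, although Id3 did with the replicate number as a block (adjusted p = 0.017).

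Genes of pluripotency fell in 12 of 20 cases and rose in 1, with a median of −0.55. Pou5f1, which encodes Oct4, had 11751, 13711 and 10574 normalized counts in the 96 h libraries and 2849, 3301 and 2469 in the 120 h libraries, or 4.18-fold lower (SE of the log2 change 0.13, adjusted p = 2.3e-19). Klf5 had 3214, 3674 and 3449 normalized counts in the 96 h libraries and 662, 956 and 797 in the 120 h libraries, a change of −2.10, and L1td1, an RNA-binding protein of pluripotent cells, had 8703, 8884 and 7333 normalized counts in the 96 h libraries and 3268, 3118 and 3168 in the 120 h libraries, a change of −1.38. The groups of these genes lie far apart. Dppa2 (−1.03), Utf1 (−0.98) and Fgf5 (−2.04) fell as well, and Nanog fell by less (3245, 3313 and 2863 at 96 h against 2377, 2572 and 2594 at 120 h, a change of −0.32). The naive gene Zfp42 had 2833, 2462 and 2682 at 96 h against 2451, 2162 and 2309 at 120 h and did not pass (adjusted p = 0.058) except with the replicate number as a block (adjusted p = 0.0499), and Klf4 (0.49) rose, a call lost with TMM scaling and in 5 of 6 fits without 1 library. The summed counts of the list were 129021 to 139396 at 96 h and 81935 to 85030.5 at 120 h.

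The same list moved the other way in WT–emiRFP cells, with 14 genes that rose, 3 that fell and a median of 0.86. For 18 of 20 genes the change in p53KO–emiRFP cells was the lower one and for none the higher, and against WT–mCherry cells of the same gastruloids it was lower in 13 and higher in none. Pou5f1 in WT–emiRFP cells had 10878, 12219.8 and 9535 normalized counts at 96 h and 9284, 11308 and 10647 at 120 h, groups that overlap. The difference of the changes was −2.0 (SE 0.18, adjusted p = 2.8e-13). In WT–mCherry cells beside p53KO cells Pou5f1 changed by −0.73, and the difference was −1.33 (adjusted p = 2.7e-07).

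Primordial germ cell genes, several of which mES cells also express, fell in 7 of 10 cases and rose in none. Prdm14, a repressor of somatic fate, had 142, 137 and 118 normalized counts in the 96 h libraries and 67.4, 74.3 and 54.2 in the 120 h libraries, a change of −1.02, and rose by 1.43 in WT–emiRFP cells. Dnd1 (−1.62), Nanos3 (−0.78) and Ifitm3 (−0.77) fell, and Dppa3 had 881, 501 and 679 at 96 h against 667, 634 and 533 at 120 h, with groups that overlap. The median was −0.33 in p53KO–emiRFP and 1.10 in WT–emiRFP cells. All 10 changes were lower than in WT–emiRFP cells and 9 were lower than in WT–mCherry cells.

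**Figure D4:**
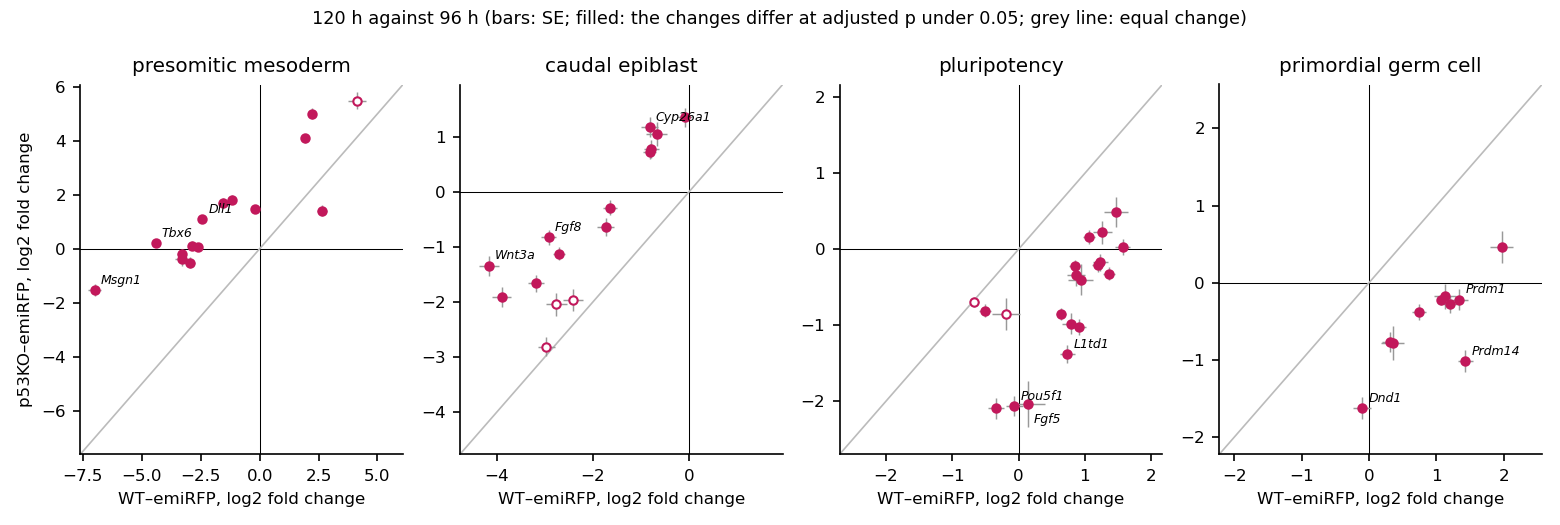
Log2 fold change from 96 h to 120 h in p53KO–emiRFP cells (vertical axis) against that in WT–emiRFP cells (horizontal axis) for the genes of 4 lists, with SE bars, filled where the changes differ at an adjusted p under 0.05. Presomitic and caudal genes lie mostly above the grey line of equal change and pluripotency and germ cell genes below it, with Msgn1 at −1.52 against −7.01 and Pou5f1 at −2.06 against −0.06.

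Lists of markers of other tissues that gastruloids can hold are read against the 18.9% of all genes that rose and the 16.1% that fell, and their part in the results above was not tested. Of 20 neural genes, 11 rose and 4 fell, with a median of 1.27 and changes of −4.15 to 5.86. Their summed counts were 9818 to 11411 at 96 h and 14499 to 15892 at 120 h. Sox1, a marker of the early neural tube, had 132, 127 and 165 normalized counts in the 96 h libraries and 729.6, 679 and 630.2 in the 120 h libraries, and Pax6 had 105, 87.3 and 107 normalized counts in the 96 h libraries and 437, 333 and 386 in the 120 h libraries, both higher in every library of 120 h. Olig2 rose from a mean of 3.69 to 18.8 and Sox2 fell by 0.22 on the log2 scale, a call lost without any 1 of 4 libraries. Of the genes that fell (5 with the replicate number as a block), Neurog2, a proneural factor, changed by −1.30 and the lipid-binding protein gene Fabp7 by −0.99. Dbx1 rose on counts of 54, 2 and 17 at 120 h, most of them in replicate 1. In the neural crest list 6 of 13 rose, among them Pax3, Pax7 (1.93) and Zic1 (1.67), which somites or neural tube also express, and 1 fell (2 with the replicate number as a block or without replicate 2 of 120 h). Sox10, a defining gene of migrating crest, went from a mean of 31.3 to 17.2, which did not pass except with the replicate number as a block (adjusted p = 0.03).

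Of 12 endoderm and notochord genes 3 rose (25.0%, and 1 without replicate 3 of 96 h) and 4 fell (33.3%), with a median of −0.16. Among those that rose were the claudin gene Cldn4 (0.92) and Cpn1 (0.91), and Foxa3 (−1.09) and Trh (−0.93) were among those that fell. The notochord and node genes Noto (125, 216 and 123 normalized counts in the 96 h libraries and 6.13, 20.8 and 7.02 in the 120 h libraries) and Foxa2 (228, 334 and 229 normalized counts in the 96 h libraries and 35.8, 64.3 and 27.1 in the 120 h libraries) changed by −3.72 and −2.61 and were lower in each 120 h library. Sox17, a defining gene of endoderm, had 53.8, 66 and 62.1 at 96 h against 56.2, 84.3 and 44.2 at 120 h, with groups that overlap. The change of Foxa2 differed from that in WT–mCherry cells of the same gastruloids by −1.56 (SE 0.51, adjusted p = 0.038). That call was lost without any 1 of 6 libraries, which were replicate 2 of 96 h and replicates 1 and 3 of 120 h of p53KO–emiRFP cells and replicates 1 and 3 of 96 h and replicate 2 of 120 h of WT–mCherry cells. In the lateral plate and cardiac list 6 of 16 rose and 3 fell. Foxf1 (1.97), Hand2 (2.10) and Tbx5 (1.58) rose and Hand1 (−1.58) fell, while the cardiac markers Nkx2-5 and Tnnt2, at means of at most 25.4 counts, did not pass. Its summed counts were 2537 to 3228 at 96 h and 2156 to 2473 at 120 h. In the intermediate mesoderm list 6 of 8 rose, with Osr1 (2.71) and Gata3 (2.66) behind Sim1.

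Haematoendothelial genes, of vessels and blood, rose in 9 of 19 cases and fell in 1 (2 with the replicate number as a block, 3 without replicate 2 of 120 h and none without any 1 of the others but replicate 3 of 96 h), with a median of 0.50. Kdr, the VEGF receptor gene, had 96.1, 57.5 and 75 normalized counts in the 96 h libraries and 131, 230.1 and 133 in the 120 h libraries, a change of 1.10. WT–emiRFP cells changed Kdr by 3.60 to 1308 ± 184 (SD, n = 3), and the difference of −2.50 passed (adjusted p = 8.5e-12). Etv2 (128, 131 and 114 at 96 h against 143, 121 and 92.3 at 120 h) and Cdh5 (47.7, 50.0 and 56.9 at 96 h against 21.5, 48.9 and 19.1 at 120 h) did not pass, and their groups overlap, although Cdh5 passed with the replicate number as a block (adjusted p = 0.023). Changes over the list ran from −0.77 to 2.42. The embryonic globin genes Hbb-bh1 and Hba-x had no count in any of the 6 libraries, though both are among the 19 tested. Of the list 14 members rose in WT–emiRFP cells, with a median of 1.42, and 9 changes were lower in p53KO–emiRFP cells and 1 higher. Of extraembryonic endoderm genes 1 of 8 rose (12.5%, below the share of all genes), Dab2 (0.88), none fell, and Ttr had no count at 120 h.

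Epithelial genes fell in 6 of 10 cases and rose in 2 (1 without replicate 2 of 120 h), with a median of −0.67. Cdh1, which encodes E-cadherin, had 20216, 21070.3 and 18874 normalized counts in the 96 h libraries and 6758, 7795 and 7099 in the 120 h libraries, or 2.78-fold lower, and its groups lie far apart. The keratin genes Krt8 (−1.04) and Krt18 (−0.92) and the adhesion gene Epcam (−0.70) fell with it. Cdh1 changed by −0.02 in WT–emiRFP cells, and the difference of −1.45 (SE 0.14) passed (adjusted p = 1.1e-12). Of 10 mesenchymal genes 5 rose and 1, Vim (−1.0), fell. Twist1 (1.60), Zeb1 (1.36) and Cdh11 (1.15) led them. Without replicate 3 of 120 h only 3 rose. Cdh2, N-cadherin, had 9219, 10002 and 10219.6 at 96 h against 13008, 11599 and 13904 at 120 h, and its call (adjusted p = 0.035) was lost in 5 of 6 fits without 1 library. Of the 10 mesenchymal genes 6 fell in WT–emiRFP cells.

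Collagens, the fibres of the matrix, rose in 22 of 41 chains tested and fell in 7, with a median of 0.64. Col26a1 had 148, 109.6 and 149 normalized counts in the 96 h libraries and 1216, 1314 and 1665 in the 120 h libraries, a change of 3.35, and Col2a1, the cartilage and notochord sheath chain, changed by 2.42. The basement membrane chains Col4a1 and Col4a2 changed by 1.10 and 1.42, Col3a1 by 2.98 and Col1a1 by 1.42. Col1a2, the partner of Col1a1 in type I collagen, changed by −1.41. The number that fell was 3 without replicate 2 of 120 h, 4 without replicate 1 of 120 h and 4 without replicate 3 of 96 h.

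Among 24 targets of p53, 4 rose (16.7%) and 7 fell (29.2%) in these cells, which carry the disrupted Trp53, with a median of 0.06. Of all genes 18.9% rose and 16.1% fell. With the replicate number as a block, 7 of the 24 targets rose. Cdkn1a, which encodes the cell cycle inhibitor p21, had 2259, 2463 and 1825 normalized counts in the 96 h libraries and 559, 612 and 453 in the 120 h libraries, a change of −2.01. The death gene Pmaip1, which encodes Noxa, had 4709, 4277 and 4156 normalized counts in the 96 h libraries and 1657, 1699 and 1586 in the 120 h libraries, a change of −1.41, and Perp changed by −1.14. These were lower in every library of 120 h. Plk2, a polo-like kinase, had 115, 159 and 103 normalized counts in the 96 h libraries and 567, 513 and 694 in the 120 h libraries, a change of 2.25, and the antiproliferative gene Btg2 had 835, 937 and 1171 normalized counts in the 96 h libraries and 1830.2, 1933 and 2213 in the 120 h libraries, a change of 1.02. Mdm2, the ligase gene that restrains p53, changed by 0.41, and Bbc3, Ccng1 and Eda2r did not pass.

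In WT–emiRFP cells 3 of the 24 p53 targets rose and 11 fell, with a median of −0.285. Plk2 went there from 2732 ± 230.2 to 2419 ± 124 (SD, n = 3 each), which is above both hours of p53KO–emiRFP cells. The change in p53KO–emiRFP cells was higher by 2.43 (SE 0.23, adjusted p = 2.6e-12) and higher than in WT–mCherry cells by 2.36 (adjusted p = 1.2e-10). Btg2 fell in WT–emiRFP cells (−1.26) and had a mean of 1954 there at 120 h. The change of Cdkn1a differed by −1.24 from WT–emiRFP cells and by −1.28 from WT–mCherry cells (adjusted p = 2.3e-08 and 1.4e-07). Plk2 reached 1604 ± 261 (SD, n = 3) in p53KO–emiRFP cells at 144 h.

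The Bcl2 family, which decides on release of mitochondrial death factors, had 4 genes that rose and 5 that fell of 15. Without any 1 of 5 libraries, all but replicate 3 of 96 h, 3 fell. The prosurvival gene Bcl2 had 419.7, 416 and 501 at 96 h against 726, 651 and 829 at 120 h, a change of 0.72, and the BH3-only gene Bmf rose by 0.84. Pmaip1, Bid (−0.66) and the effector gene Bak1 (−0.62) fell. Of 7 CDK inhibitor genes 2 rose and 2 fell (28.6% each, against 18.9% and 16.1% of all genes), with a median of 0.19. Among them Cdkn2c changed by 0.74. Without any 1 of 4 libraries (replicates 1 and 3 of 96 h and 2 and 3 of 120 h) 1 rose, and without replicate 2 of 96 h 1 fell.

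Genes of growth changed by little. Of 22 ribosome biogenesis genes 14 fell and none rose, with changes of −0.36 to −0.05 over the list and a median of −0.19, and the median was −0.14 in WT–emiRFP cells. Of 18 DNA replication genes 5 fell (27.8%) and 2 rose (11.1%), against 16.1% and 18.9% of all genes, with a median of −0.07. The 2 that rose, E2f1 and Cdc45, lost their calls with TMM scaling and without single libraries (0 rose without replicate 3 of 96 h, and 1 without any 1 of the others but replicate 2 of 96 h), and without replicate 2 of 96 h 3 fell. Of 18 mitosis genes 4 rose (22.2%, near the 18.9% of all genes) and 1 fell (5.56%, against 16.1%), with a median of 0.09. With the replicate number as a block 9 rose. Mki67, the antigen of cycling cells, changed by 0.35. In the Myc network 6 of 10 rose. Myc had 1725, 1781 and 1810.2 at 96 h against 2435, 2283 and 2177 at 120 h, a change of 0.38, and its antagonists Mxi1 (0.66) and Mxd4 (0.51) rose too, while Mycl fell (−0.64).

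Of 24 genes of glycolysis and hypoxia, 15 rose and 2 fell (1 without any 1 of the 6 libraries), with a median of 0.32. The lactate exporter gene Slc16a3 changed by 1.30, the hexokinase gene Hk1 by 1.08, Bnip3 by 1.03 and the growth factor gene Vegfa by 0.92. The median was 0.50 in WT–emiRFP cells, and 9 changes were lower in p53KO–emiRFP cells and 2 higher. Of 17 cholesterol synthesis genes 16 rose and 1 fell (none with no filter or without any 1 of 5 libraries, all but replicate 3 of 96 h), with a median of 0.37. The median was 0.58 in WT–emiRFP cells, and 8 changes were lower in p53KO–emiRFP cells and none higher. Cyp51, a demethylase of the pathway, had 8559, 8414 and 8728 normalized counts in the 96 h libraries and 12144, 11891 and 13069 in the 120 h libraries, a change of 0.53. The rises were at most 0.53. Of 12 genes of the integrated stress response 1 rose (8.33%) and 2 fell (16.7%), against 18.9% and 16.1% of all genes. None rose without replicate 1 of 120 h, 2 rose with the replicate number as a block, and none fell without replicate 2 of 96 h.

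Of 16 imprinted genes 7 rose and 5 fell (3 without replicate 2 of 96 h). The noncoding RNA H19 had 139.9, 167 and 219.9 normalized counts in the 96 h libraries and 1688, 1853 and 1872 in the 120 h libraries, a change of 3.36, and Igf2, the growth factor gene beside it, had 606, 544 and 829.6 normalized counts in the 96 h libraries and 3718, 3656 and 4120.3 in the 120 h libraries, a change of 2.54. Nnat (2.16), Mest (2.03) and Plagl1 (1.67) rose as well, and Phlda2 (−1.20), Peg10 (−0.83) and Snrpn (−0.78) fell. The change of Igf2 was higher than in WT–emiRFP cells by 2.07 (adjusted p = 2.5e-10), while that of H19 did not pass as different (0.36, adjusted p = 0.48).

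**Figure D5:**
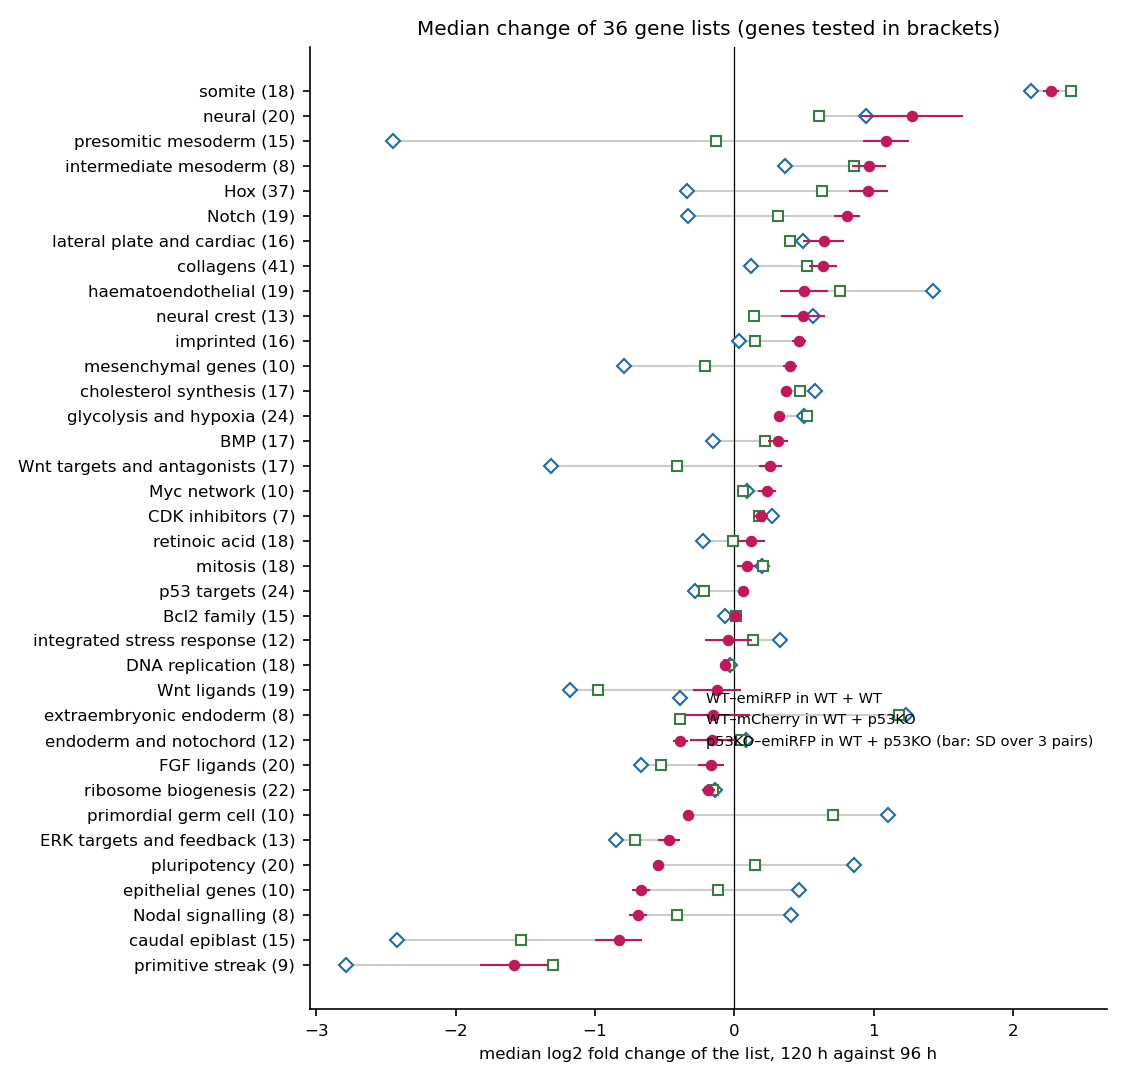
Median log2 fold change from 96 h to 120 h of 36 gene lists, with the number of genes tested in brackets, for p53KO–emiRFP cells (filled circles, bars for the SD over 3 same-numbered pairs), WT–emiRFP cells (open diamonds) and WT–mCherry cells beside p53KO cells (open squares). The somite list stands highest at 2.27 and the primitive streak list lowest at −1.58, and the presomitic list has its diamond at −2.45.

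The change from 96 h to 120 h differed between p53KO–emiRFP and WT–emiRFP cells for 6503 genes (30.8%), 3560 with a higher change in p53KO–emiRFP cells and 2943 with a lower one. In 1093 of them both changes passed and went in opposite directions, 642 up and 451 down in p53KO–emiRFP cells. The largest differences upward were those of the potassium channel gene Kcnk3 and of Msgn1. Kcnk3 had 39.2, 45.8 and 58.6 normalized counts in the 96 h libraries and 377, 506 and 632 in the 120 h libraries, while in WT–emiRFP cells it went from 240.0, 231 and 296 to 58.5, 57.2 and 60.1. Its changes were 3.40 and −2.12, a difference of 5.52 (SE 0.34, adjusted p = 2.2e-19). The receptor gene Npbwr1 (4.79), the tolloid protease gene Tll2 (4.51), the sphingosine receptor gene S1pr5 (3.89) and the protocadherin gene Pcdh19 (3.88) were among the 8 largest too, with Tbx6 and Aldh1a2.

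Downward, large differences were those of Fam169b (−2.67), the Polycomb cofactor gene Phf19 (−2.53), Kdr, AU015836 (−2.48), the embryonic stem cell Ras gene Eras (−2.42), Eomes and Dennd2c (−2.39). Dennd2c, an activator of Rab GTPases, had 2287, 2438 and 2558 normalized counts in the 96 h libraries and 499, 573 and 494 in the 120 h libraries, a change of −2.22. WT–emiRFP cells had 2677, 2699 and 2366 at 96 h and 2853, 2942 and 2925 at 120 h, so that the p53KO–emiRFP cells of 120 h stood below every other of these libraries.

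Against WT–mCherry cells of the same gastruloids, 2233 genes (10.6%) changed differently, 1240 higher and 993 lower in p53KO–emiRFP cells. With the replicate number as a block the number was 3202, with 1908 higher and 1294 lower, and with only the compared libraries and the block it was 4530. The higher ones numbered 788 without replicate 3 of p53KO–emiRFP cells at 120 h and 802 without replicate 1 at 96 h. Both comparisons share the p53KO–emiRFP libraries. Under the same limits on CPM and symbol, the largest differences upward were Tmem114 (2.61), Kcnk3 (2.56), Plk2, Msgn1, Nfam1 (2.09), Adamtsl2 (2.08), Tll2 (2.07) and Wnt10a (2.02). Wnt10a fell in both populations, with changes of −1.38 in p53KO–emiRFP and −3.40 in WT–mCherry cells. Large differences downward were those of Dennd2c (−1.91), the glutathione peroxidase gene Gpx2 (−1.79), Fam169b (−1.57), Foxa2, Acp5 (−1.54), Cyp2s1 (−1.54) and the epithelial factor gene Elf3 (−1.53).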

How the data were processed

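Sorted cells of mosaic gastruloids were profiled by poly(A) RNA sequencing with stranded libraries, and 6 of the 69 libraries, p53KO–emiRFP cells at 96 h and 120 h, are the subject here. Per the methods and the submitters' processing notes, the authors trimmed reads with Trim Galore 0.6.7, aligned them to GRCm38.p6 with STAR 2.7.11b and deposited the raw counts of uniquely mapped reads from STAR for 55367 gene symbols. The strand setting of the counting is not given in the sources used here.

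Libraries were scaled by the median of ratios, computed over all 69. All libraries were fitted together by group (23 groups of 3, 46 residual degrees of freedom) with edgeR 4.0.16 in R 4.3.3, after filterByExpr, with the quasi-likelihood test and Benjamini-Hochberg adjustment at 0.05. DESeq2 1.42.0, TMM, no filter, only the compared libraries, the replicate number as a block and each library left out were alternatives. The fits were checked on simulated data. Between the hours compared, same-numbered libraries mostly deviated from their group means together. The correlations across genes were 0.147 to 0.27 in p53KO–emiRFP, 0.114 to 0.417 in WT–emiRFP and 0.229 to 0.502 in WT–mCherry cells of WT + p53KO gastruloids. In WT–mCherry cells of WT + WT gastruloids they were −0.016, 0.367 and 0.466. Replicate 1 of 96 h and 2 of 120 h, which are no pair, gave 0.104 in WT–emiRFP cells. They gave 0.144 in WT–mCherry cells of WT + p53KO and 0.217 in those of WT + WT gastruloids. The study's methods call replicates separate experiments, so the numbers were taken to pair the libraries in the block fit. The reported fit has no pairing. The block fit is named beside a printed count that it moved by over 1.5 times and a described gene whose call it changed, and beside some smaller shifts. Exact intervals cover counting error only.

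The lists (36 with 568 genes), genes and comparisons were chosen with earlier results of these data known. The rule for genes to name covered Trp53, all Hox, Wnt and FGF ligand genes, and the 15 largest rises and falls among genes that passed. Those rises and falls had a mean log2 CPM of 1 or more, groups that do not overlap, 3 same-numbered pairs that agree in sign and no predicted symbol. The rule also covered up to 6 members of each list with the largest changes past the threshold and up to 3 that moved against its median. Its last part was the 8 largest differences in each direction that passed, under the same limits on CPM and symbol. List members named beyond this rule, 39 of the 381 genes followed through the alternatives, were added after their values were seen. A gene was called switched on with at most 3 counts in each library before and at least 100 normalized counts after. Positions are those of the Gencode annotation of GRCm38, and promoters are from RefSeq. Not every gene that the rule covers is named in the text, Hox and FGF ligand genes among them, and some are not reported here.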

Additional observations from a re-analysis of the deposited data

Results flagged for a closer look

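The results below stand out because the change from 96 h to 120 h in p53KO–emiRFP cells differed from that of a WT population by a test of the difference itself. Against WT–emiRFP cells of WT + WT gastruloids this held for 6503 genes, and against WT–mCherry cells of the same gastruloids for 2233. The values are differences of log2 fold changes, with positive values for a higher change in p53KO–emiRFP cells.

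Against WT–emiRFP cells the highest were Kcnk3 at 5.52, Msgn1 at 5.48, Npbwr1 at 4.79, Tbx6 at 4.62, Tll2 at 4.51, Aldh1a2 at 3.97, S1pr5 at 3.89 and Pcdh19 at 3.88. Among the lowest were Fam169b at −2.67, Phf19 at −2.53, Kdr at −2.50, AU015836 at −2.48, Eras at −2.42, Dennd2c at −2.39 and Eomes at −2.39. Tll2 had 123, 106 and 133 normalized counts in the 96 h libraries and 277, 238 and 276 in the 120 h libraries in p53KO–emiRFP cells. S1pr5 had 141, 148 and 189.7 normalized counts in the 96 h libraries and 80.7, 98.8 and 86.3 in the 120 h libraries.

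Against WT–mCherry cells beside p53KO cells the highest were Tmem114 at 2.61, Kcnk3 at 2.56, Plk2 at 2.36, Msgn1 at 2.29, Nfam1 at 2.09, Adamtsl2 at 2.08, Tll2 at 2.07 and Wnt10a at 2.02. Among the lowest were Dennd2c at −1.91, Gpx2 at −1.79, Fam169b at −1.57, Foxa2 at −1.56 (a call lost without any 1 of 6 libraries), Acp5 at −1.54, Cyp2s1 at −1.54 and Elf3 at −1.53. Both sets share the p53KO–emiRFP libraries. Within each comparison the part of genotype against neighbours, or of genotype against clone, cannot be told apart.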

How the results depend on the processing

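The number of genes that changed was 7382 in the reported fit, 7394 with TMM, 6680 with no filter, 7882 with only the compared libraries, 7376 with DESeq2, 8372 with the replicate number as a block, 9111 with only the compared libraries and the block, 6039 to 6807 without 1 library and 1920 with an absolute log2 change of at least 1. The named genes gave 4540 values over all alternatives, of which 4323 kept direction and call, 120 lost the call, 97 gained it and 0 changed sign. Blocking on the replicate number, 369 of 381 named genes kept their call and 12 gained one, all 32 named differences kept theirs, and 66 of 72 counts of list members stayed within 1.5 times. Over all alternatives the named differences gave 576 values, of which 6 lost the call, each that of Foxa2 against WT–mCherry cells without 1 library, while 106 of 864 counts of list members moved by over 1.5 times and 34 of 396 list medians by more than their spread over pairs. Differences from WT–mCherry cells numbered 4530 (2367 higher, 2163 lower) with only the compared libraries and the block, and 1908 higher with the block alone. The higher ones numbered 788 to 1259 without 1 library, with 802 without replicate 1 of 96 h and 788 without replicate 3 of 120 h. Switched on were 5 genes with at most 10 counts.

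Medians of the Bcl2 family, extraembryonic endoderm and integrated stress response lists (0.01, −0.16 and −0.05) changed sign in 1 or more alternatives by less than the SD over pairs. The FGF ligands had −0.17 in the reported fit, 0.069 with no filter, −0.39 with only the compared libraries and −0.40 with the block as well. The neural crest median of 0.49 was 0.24 and 0.25 in those fits. Without 1 library the medians ranged from 0.016 to 0.092 for p53 targets, −0.62 to −0.52 for pluripotency, −0.80 to −0.60 for Nodal, 0.99 to 1.27 for presomitic, 2.08 to 2.44 for somite, −0.34 to −0.041 for endoderm and notochord, 0.93 to 1.10 for intermediate mesoderm, −0.37 to −0.32 for germ cell, 0.84 to 1.16 for Hox, −0.19 to −0.038 for FGF ligands, 0.09 to 0.29 for retinoic acid, 0.78 to 0.99 for Notch, 0.27 to 0.48 for mesenchymal, 0.17 to 0.30 for Myc, 0.14 to 0.24 for CDK inhibitors, 0.34 to 0.38 for cholesterol, 0.41 to 0.51 for imprinted and 0.52 to 0.75 for collagen genes. The cause of these shifts was not tested. Counts of small lists moved by more than 1.5 times in 106 of 864 values. Fold changes of genes at a few counts per library are imprecise.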
